A study of Mus musculus with 6 samples.

Results

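Thyroid hormone handling and response in upper-layer astrocytes (ULAs) and deep-layer astrocytes (DLAs) was followed through 8 genes, taken as the rows of the deposited expression table that carry the symbols Slco1c1, Dio2, Dio3, Crym, Thra, Thrb, Klf9 and Hr, out of 43383 rows. All 8 symbols had a row. The cells came from 4-week-old male Aldh1l1-eGFP mice, in which the astrocytic Aldh1l1 promoter drives eGFP, and every library was made from GFP-positive cells, so both groups carry the same transgene. ULAs were sorted from layers II to IV and DLAs from layers V and VI, both in the somatosensory cortex, with layer I, the meninges and the corpus callosum removed, and tissue at the border of layers IV and V was partly lost in the dissection. There were 3 libraries per layer, numbered 1 to 3 and taken here as 3 brains, with no other treatment. Values are RPKM, the reads on an mRNA per 1000 bases of its length and per M of mapped reads, so levels of different genes are set side by side per length. This holds only as far as the counting was equally complete for each gene. Gapdh, abundant in most cells, had only 9.11 to 21.11 RPKM beside 131.04 to 164.88 RPKM for Sdha, and whether the 8 genes lost reads was not tested.

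Thyroid hormone reaches the brain mainly as thyroxine, the prohormone T4, which crosses membranes through transporters. In astrocytes T4 is converted by the type 2 deiodinase to T3, the form that binds nuclear receptors with high affinity, and neurons take up T3 that astrocytes release. The type 3 deiodinase inactivates T4 and T3, and the receptors regulate target genes together with retinoid X receptors, corepressors and coactivators.

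Slco1c1 and Dio2, the genes for uptake and activation, had higher RPKM in ULAs in each of the 3 brains, by 1.28 ± 0.0556-fold and 1.38 ± 0.116-fold (mean ± SD of the within-brain ratios, n = 3), but neither passed the test over all rows. Klf9, a hormone-responsive transcription factor gene, was lower in ULAs in each brain, with a ratio that ran from 0.569 to 0.970, and did not pass either. The receptor genes Thra and Thrb and the corepressor gene Hr had almost equal means in both layers. Dio3 had no reads in any library, and Crym had between 1 and 4. Among 40 further genes of the pathway, 30 were tested, 0 passed as higher in ULAs and 2 passed as higher in DLAs, the myelin genes Mbp and Mag, beside 1.63% of all rows tested that passed in either direction.

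Promoter sequences are shown for the 3 tested genes whose sign was shared by all brains, so that the letters before the start of the uptake gene, the activation gene and the responsive gene can be compared. They were chosen after the values were seen. RefSeq promoters on build GRCm38.p6 were found for 5 of the 8 members (Thra, Hr and Crym had no entry). The 250 bases before the annotated start are given 5′ to 3′ on the strand of the gene, at chr12:90739039-90739288 on the minus strand for Dio2, chr6:141524104-141524353 on the plus strand for Slco1c1 and chr19:23140976-23141225 on the plus strand for Klf9. Capitals mark matches on either strand to the cAMP response element TGACGTCA, the TATA box TATAAA, the hexamer AGGTCA that thyroid hormone receptors recognise or the GC box GGGCGG.
Dio2: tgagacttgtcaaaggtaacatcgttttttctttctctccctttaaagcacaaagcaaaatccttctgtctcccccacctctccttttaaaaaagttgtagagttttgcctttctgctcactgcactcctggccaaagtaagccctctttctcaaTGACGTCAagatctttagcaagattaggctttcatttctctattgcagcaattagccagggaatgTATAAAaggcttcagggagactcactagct
Slco1c1: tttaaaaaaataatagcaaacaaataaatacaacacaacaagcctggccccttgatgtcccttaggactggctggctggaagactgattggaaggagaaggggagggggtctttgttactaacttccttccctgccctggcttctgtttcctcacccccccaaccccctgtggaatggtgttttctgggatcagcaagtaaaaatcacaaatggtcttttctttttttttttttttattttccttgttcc
Klf9: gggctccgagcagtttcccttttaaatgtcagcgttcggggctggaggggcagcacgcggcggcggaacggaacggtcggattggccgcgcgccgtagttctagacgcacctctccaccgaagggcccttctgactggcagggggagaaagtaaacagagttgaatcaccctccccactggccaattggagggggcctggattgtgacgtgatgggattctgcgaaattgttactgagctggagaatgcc
In Dio2, which is known as a cAMP-inducible gene, TGACGTCA began 95 bases before the start and TATAAA began 30 bases before it. The Slco1c1 and Klf9 windows held none of these 4 strings. TGACGTCA was present in 1.55% of the 32851 mouse promoter windows of this length, TATAAA in 12.4%, AGGTCA in 14% and GGGCGG in 32.7%. A match is a string of letters and not a measured site.

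Each library held 19.657 to 29.557 M reads, a depth recovered from the spacing of its RPKM values. The layers were compared by limma on log2(RPKM + 1), with brain and layer as terms, over the 13999 rows whose mean RPKM reached 1, and a row passed at a Benjamini-Hochberg adjusted p under 0.05. For genes of low level this scale gives too small a change. Of all rows tested, 1.63% passed, 0.714% as higher in ULAs and 0.914% as higher in DLAs. Of the 8 members 6 were tested, since Dio3 and Crym lay under the filter, and 0 passed. The ranges of ULAs and DLAs did not overlap for 2 of the 6, Slco1c1 and Dio2, beside 15.9% of all rows tested. The sign was shared by all 3 brains for 3 of the 6, beside 38.4% of all rows, and that share is too near the background to be a result about these genes.

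**Figure D1:**
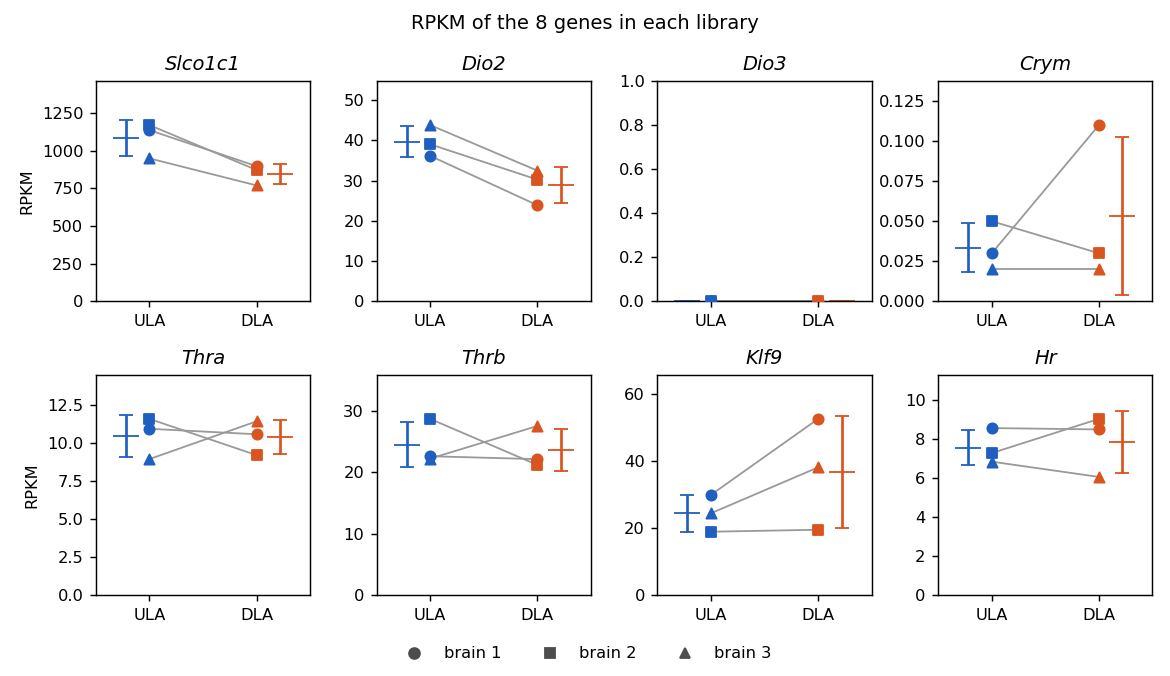
RPKM (vertical axes from 0, each with its own scale) of the 8 genes in the ULA and DLA library of each brain, joined within the brain, with the mean and SD of each layer (n = 3) beside the points. All ULA points lie above all DLA points for Slco1c1 and Dio2, Klf9 falls towards ULAs in each brain while the layers overlap, and Dio3 is at 0 throughout.

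Slco1c1 encodes OATP1C1, a transporter with high affinity for T4. The row lies on mm9 at chr6:141472907-141518698 on the plus strand, with 15 exons and 3178 bases of mRNA. ULAs had 1135.2, 1168.91 and 948.08 RPKM in brains 1, 2 and 3, and DLAs had 896.43, 871.01 and 768.53 RPKM. The lowest ULA library was above the highest DLA library, and brain 3 was the lowest in both layers. Slco1c1 was thus the most abundant of the 8 genes by a wide margin, at place 47 of the 27963 rows above 0. The log2 fold change of ULAs over DLAs was 0.36 (SE 0.09, 95% interval 0.15 to 0.56), with a limma adjusted p of 0.0932. Leaving out brain 3 took it past the threshold, at an adjusted p of 0.0455, and its adjusted p ranged up to 0.708 when other settings were used.

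Slco1c1 is also known from the endothelium of the brain, so endothelial markers were read beside it. Of 7 endothelial genes, Cdh5 was at most 0.01 RPKM, Pecam1 at most 0.16 and Cldn5 at most 1.08, reached in the DLA library of brain 1. The summed level of the list was 208.9 to 252.81 RPKM in ULAs and 170.28 to 205.03 RPKM in DLAs, and nearly all of it was Slc2a1, the glucose transporter gene GLUT1, at 169.68 to 252.15 RPKM. The organic anion transporter gene Slco1a4, also endothelial, had 0.03 to 1.03 RPKM. Slc2a1, which astrocytes are known to express as well, was higher in ULAs in 3 of 3 brains with no overlap, as was Slco1c1, with a log2 fold change of 0.24 (limma adjusted p 0.248). The vascular mural marker Rgs5 moved the same way, at 1.98 to 2.7 RPKM in ULAs and 0.75 to 1.01 RPKM in DLAs, with a log2 fold change of 0.77 (limma adjusted p 0.0455, and 0.0942 without brain 2). The mural gene Pdgfrb had a log2 fold change of 0.08 (limma adjusted p 0.790) and was lower in ULAs in brain 2. Of the endothelial genes with means under 1 RPKM, Cldn5, Pecam1 and Flt1 had the higher mean in DLAs. Tek and Ly6c1 had the higher mean in ULAs, and Cdh5 had equal means. Slco1a4 had the higher mean in DLAs. The part of vascular cells in the Slco1c1 values was not tested.

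Dio2 encodes the type 2 deiodinase, the enzyme that makes T3 from T4. The row lies on mm9 at chr12:91962992-91976878 on the minus strand, with 2 exons and 5815 bases of mRNA. ULAs had 36.14, 39.02 and 43.79 RPKM in brains 1, 2 and 3, from 5139 to 6800 reads, and DLAs had 23.88, 30.24 and 32.48 RPKM, from 3457 to 5584 reads. The layers did not overlap, and brain 1 was the lowest and brain 3 the highest in both. The log2 fold change was 0.45 (SE 0.10, 95% interval 0.22 to 0.68), with a limma adjusted p of 0.0695. The gene passed in 3 of 11 alternatives. These were a minimum mean of 5 RPKM (adjusted p 0.0417), quantile normalization (0.0315) and leaving out brain 3 (0.0225). It did not pass in the other 8, with an adjusted p up to 0.591. Removal of the mRNA length trend lowered its log2 fold change to 0.36 (limma adjusted p 0.179). The study names Dio2 from these same libraries, so its direction here is not independent evidence.

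The row ENSMUSG00000085138 runs on the opposite strand across the start of Dio2, from 91976641 to 91989133, and shares 100 exon bases with it, 1.72% of the Dio2 mRNA. The library kit does not keep strand, so reads on those bases cannot be told apart. This row had 25.18, 33.05 and 34.91 RPKM in ULAs and 21.31, 27.09 and 31.57 RPKM in DLAs. Like Dio2 it was higher in ULAs in each brain, but its layers overlapped, with a log2 fold change of 0.22 (SE 0.10) and a limma adjusted p of 0.333.

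Dio3 encodes the type 3 deiodinase, which inactivates T4 and T3 and is imprinted. The row lies on mm9 at chr12:111517440-111519307 on the plus strand, with 1 exon and 1868 bases. It was listed at 0 in all 6 libraries, which allows a level of up to 0.0543 to 0.0817 RPKM per library, the value of 3 reads. Of 14 genes that nearly every cell uses, 0 were listed at 0 in any library. Dio1, for the type 1 deiodinase of liver and kidney, had at most 0.01 RPKM. Dio2 was thus the only deiodinase gene of the 3 with more than a trace of reads. Such intervals cover counting error only.

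Crym encodes mu-crystallin, a cytosolic protein that binds T3. The row lies on mm9 at chr7:127329898-127345502 on the minus strand, with 8 exons and 1256 bases of mRNA. It had 0.03, 0.05 and 0.02 RPKM in ULAs and 0.11, 0.03 and 0.02 RPKM in DLAs. These values stand for 1 or 2 reads per ULA library and 1 to 4 reads per DLA library, so a layer difference was not detectable at this depth.

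Thra encodes the thyroid hormone receptor alpha. Its row on mm9 at chr11:98603187-98626425, on the plus strand, has 9 exons, 2246 bases and 1 accession, so the hormone-binding and the non-binding splice forms known for this gene were not separated. ULAs had 10.92, 11.57 and 8.93 RPKM and DLAs had 10.56, 9.19 and 11.41 RPKM. The layers overlapped fully, with the higher value in ULAs in brains 1 and 2 and in DLAs in brain 3. The log2 fold change was 0.01 (SE 0.14, 95% interval -0.31 to 0.32), with a limma adjusted p of 0.983.

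Thrb encodes the thyroid hormone receptor beta, on mm9 at chr14:18493474-18870602 on the plus strand, with 11 exons and 6555 bases of mRNA. ULAs had 22.59, 28.66 and 22.21 RPKM and DLAs had 22.11, 21.17 and 27.5 RPKM. Brain 2 was the highest ULA library and brain 3 the highest DLA library, as for Thra, and the layers overlapped. Its log2 fold change was 0.05 (SE 0.14, 95% interval -0.26 to 0.36), with a limma adjusted p of 0.891. The small RNA row ENSMUSG00000084722 lies inside the span of Thrb on the other strand and shares no exon base with it. Per length, Thrb exceeded Thra in every library, with a ratio of 2.07, 2.48 and 2.49 in ULAs and 2.09, 2.30 and 2.41 in DLAs. Averaged over brains this ratio was 2.34 ± 0.239 for ULAs against 2.27 ± 0.161 for DLAs (SD, n = 3), with overlapping layers.

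Klf9 encodes a zinc finger transcription factor induced by T3 and also by glucocorticoids. The row lies on mm9 at chr19:23215716-23241401 on the plus strand, with 2 exons and 3263 bases of mRNA, and Mir1192 lies in its span with no shared exon base. ULAs had 29.94, 18.92 and 24.43 RPKM in brains 1, 2 and 3, and DLAs had 52.59, 19.51 and 38.13 RPKM. Brain 2 was the lowest in both layers and showed almost no difference, while in brains 1 and 3 the DLA library was clearly the higher one. The log2 ratios within brains were -0.79, -0.04 and -0.62, and the layers overlapped. Over the 3 brains the log2 fold change was -0.49 (SE 0.14, 95% interval -0.81 to -0.16), with a limma adjusted p of 0.140. Without brain 2 it was -0.71 with an adjusted p of 0.0127, and over the alternatives the adjusted p ran up to 0.759.

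Some oligodendrocyte markers were also higher in DLAs. The summed level of the 7 genes was 53.05 to 85.6 RPKM in ULAs and 84.13 to 99.27 RPKM in DLAs, led by Cnp, and these sums overlapped while 4 of the 6 tested passed as higher in DLAs. Whether these cells had a part in the Klf9 values was not tested. In such bulk samples, fewer cells of a type and less RNA per cell cannot be told apart.

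Hr encodes hairless, a corepressor that binds thyroid hormone receptors and is itself induced by T3 in brain. The row lies on mm9 at chr14:70953863-70973349 on the plus strand, with 20 exons and 5481 bases of mRNA. ULAs had 8.55, 7.27 and 6.83 RPKM and DLAs had 8.48, 9.02 and 6.05 RPKM. The layers overlapped, and the sign differed between brains. The log2 fold change was -0.04 (SE 0.13, 95% interval -0.33 to 0.26), with a limma adjusted p of 0.916. The intervals of Thra, Thrb and Hr reach 0.26 to 0.36 towards ULAs and -0.33 to -0.26 towards DLAs, so equal levels were not shown.

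**Figure D2:**
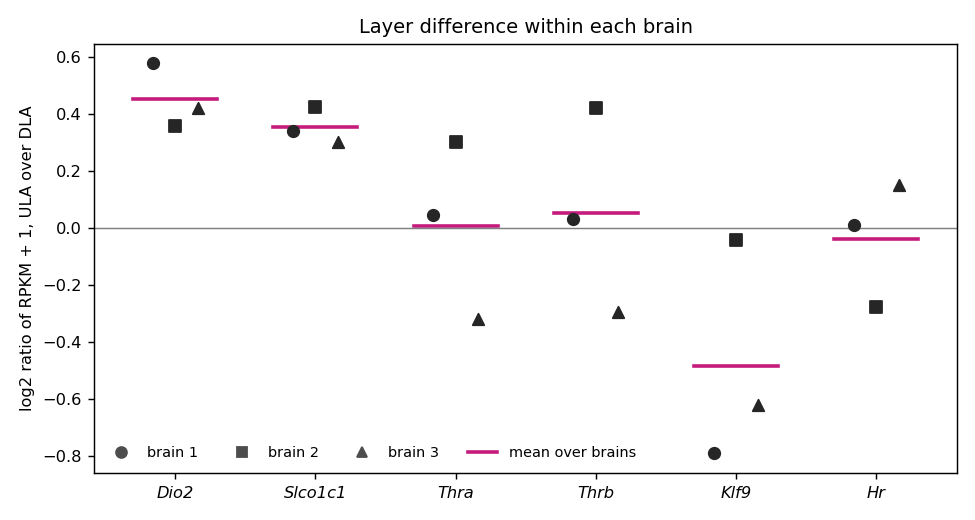
Log2 ratio of RPKM + 1 of ULAs over DLAs in each brain (points) and the mean over 3 brains (bars) for the 6 tested genes. The 3 points of Dio2 and of Slco1c1 lie above 0, those of Klf9 lie below 0 with brain 2 at -0.04, and those of Thra, Thrb and Hr lie on both sides.

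Within ULAs the order of the levels was Slco1c1, Dio2, Thrb, Klf9, Thra, Hr, Crym and Dio3, and the only neighbours whose ranges overlapped were Thrb and Klf9. Within DLAs it was Slco1c1, Klf9, Dio2, Thrb, Thra, Hr, Crym and Dio3, and the ranges of Klf9 and Dio2 and those of Dio2 and Thrb overlapped. Among the rows above 0, Dio2 held place 2389 by mean RPKM, Klf9 2679, Thrb 3315, Thra 6106 and Hr 7284.

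Of 6 other transporter genes, 2 were tested and 0 passed. They encode the subunits of an amino acid exchanger that also carries thyroid hormone. Slc7a5, for the light chain LAT1, had a log2 fold change of 0.35 (limma adjusted p 0.159) and was higher in ULAs in 3 of 3 brains with overlapping layers. Slc3a2, for the heavy chain, had -0.08 (limma adjusted p 0.733). Slc16a10, Slc7a8, Slco1a4 and Slc10a1 had means under 1 RPKM. The median log2 fold change of the 2 tested genes was 0.13, beside -0.03 for all rows tested.

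Of 7 genes for deiodinase turnover and hormone metabolism, 6 were tested and 0 passed, with a median log2 fold change of 0.13. The largest values in each direction were 0.25 for Usp33, a deubiquitinase that acts on the type 2 deiodinase (limma adjusted p 0.287), and -0.22 for the sulfotransferase gene Sult1a1 (adjusted p 0.340). All 15 receptor partners and cofactors were tested and 0 passed, with a median of 0.07. They ran from -0.34 for Rxrg, a retinoid X receptor (limma adjusted p 0.315), to 0.21 for the coactivator gene Crebbp (adjusted p 0.553).

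Of 12 other genes known to respond to thyroid hormone, 7 were tested, 0 passed as higher in ULAs and 2 as higher in DLAs, with a median log2 fold change of -0.25. The 2 were Mbp and Mag, which encode proteins of the myelin sheath that oligodendrocytes make. Mbp had 14.95, 10.5 and 15.87 RPKM in ULAs and 35.24, 37.97 and 36.54 RPKM in DLAs, with no overlap and a log2 fold change of -1.37 (limma adjusted p 0.0014). Mag had 1.07, 1.66 and 5.66 RPKM in ULAs and 3.73, 6.62 and 8.01 RPKM in DLAs. Its layers overlapped, with brain 3 the highest library in each. Mag had a log2 fold change of -1.05 (limma adjusted p 0.0287), but its adjusted p was 0.0793 without brain 2 and ranged up to 0.449, the value with no term for the brain.

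Both moved with the oligodendrocyte list above, in which the myelin gene Mog had 1.43, 1.48 and 8.37 RPKM in ULAs and 6.76, 9.14 and 12.95 RPKM in DLAs. The part of such cells in the myelin genes was not tested. The most positive responsive gene was Nrgn, a neuronal calmodulin-binding protein gene, with a log2 fold change of 0.35 (limma adjusted p 0.296). Thrsp, a lipogenic gene named for its response to the hormone, was abundant at 195 to 292.68 RPKM and had a log2 fold change of -0.12 (limma adjusted p 0.638). Rasd2, Camk4, Shh, Ntf3 and Reln had means under 1 RPKM.

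**Figure D3:**
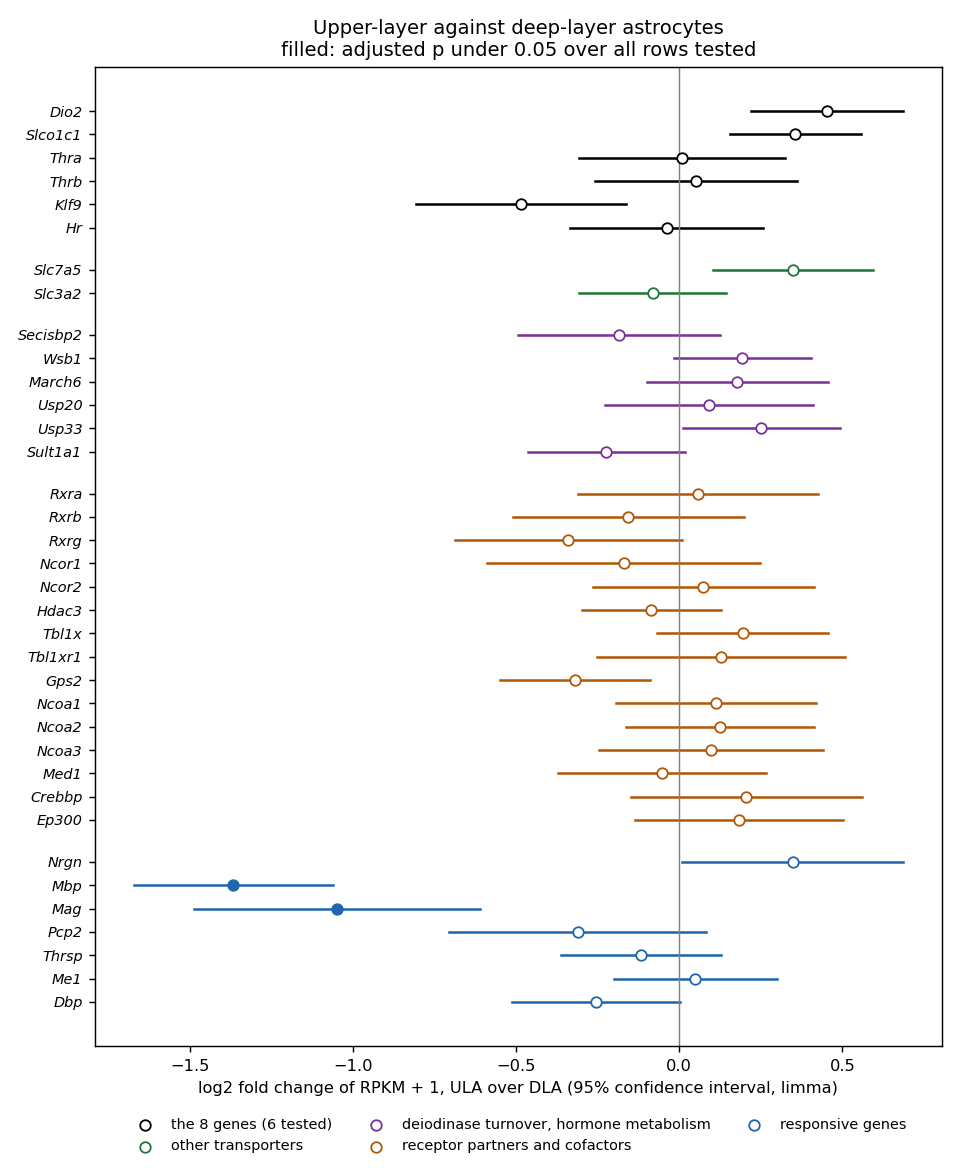
Log2 fold change of RPKM + 1 of ULAs over DLAs (horizontal axis) with its 95% interval from limma for the 6 tested members and the 30 tested genes of the 4 other lists, filled where the adjusted p was under 0.05. Mbp stands at -1.37 and Mag at -1.05 on the DLA side, and no member is filled.

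The genes most alike to each member were found by the Pearson correlation of log2(RPKM + 1) over the 6 libraries, among 7914 tested rows that carry a RefSeq accession and average 5 RPKM or more. For Dio2 they were Immp2l (r = 0.988) and Lass4 (r = 0.984), for Slco1c1 St6galnac5 (r = 0.991) and Fars2 (r = 0.989), and for Klf9 Ankrd13a (r = 0.998) and Jdp2 (r = 0.992). Thra was most like Mcc (r = 0.977) and Sox5 (r = 0.974), Thrb was most like Fmn2 (r = 0.997) and Snx13 (r = 0.983), and Hr was most like Slc35c2 (r = 0.995) and Tbccd1 (r = 0.989). With 6 points that share brains and library depth, between 38 and 193 rows had an r over 0.9 with each member, so the values are descriptions only.

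**Figure D4:**
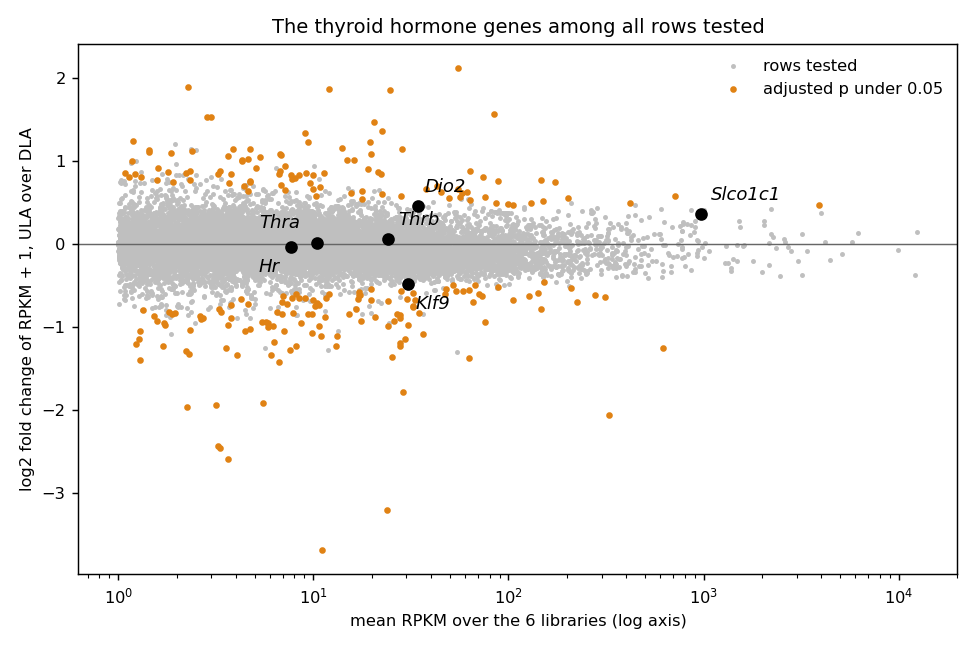
Log2 fold change of RPKM + 1 of ULAs over DLAs against mean RPKM (log axis) for the 13999 rows tested, with rows at an adjusted p under 0.05 in orange and the 6 tested members in black. Slco1c1 lies at the high end of expression at 0.36, Dio2 and Klf9 lie at the edges of the grey cloud at 0.45 and -0.49, and Thra, Thrb and Hr lie near its middle.

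The sorted cells were checked against marker lists. The 9 astrocyte genes summed to 11290.81 to 11974.64 RPKM in ULAs and 10275.26 to 11259.14 RPKM in DLAs, led by Aldoc, and 0 of the 9 passed, with 5 above 0 and a median log2 fold change of 0.14. They ran from -0.28 for S100b to 0.42 for Slc1a3, a glutamate transporter gene (limma adjusted p 0.0554), beside 0.36 for Slco1c1 and 0.45 for Dio2. Slc1a3, Gja1, Slc1a2 and Atp1b2 were higher in ULAs in 3 of 3 brains with no overlap. S100b was lower in ULAs in 3 of 3 brains with no overlap, at 129.33 to 143.01 RPKM against 159.86 to 171.96 RPKM in DLAs. Among all rows tested, 15.9% had layers that did not overlap. Aldh1l1, which drives the sort, had a log2 fold change of -0.14 (limma adjusted p 0.562). Gfap, an intermediate filament gene, had a log2 fold change of -0.93 (limma adjusted p 0.00556). The 9 neuronal genes, led by Snap25, summed to at most 7.86 RPKM, the 4 oligodendrocyte precursor genes to at most 0.99, and the 6 microglial genes, led by P2ry12, to at most 13.82. Upper-layer neuron genes summed to 185.77 to 209.15 RPKM in ULAs and 150.45 to 236.89 RPKM in DLAs, mostly Rorb. Of these genes Cux2 had at most 0.49 RPKM, and which cells gave the sum was not tested. Deep-layer neuron genes summed to at most 9.64 RPKM, led by Fezf2, with Bcl11b at 0 in all libraries. Pericyte and smooth muscle genes, led by Pdgfrb, summed to 16 to 23.09 RPKM in ULAs and 11.85 to 19.02 RPKM in DLAs, and of the 2 tested Rgs5 passed. Blood cell genes summed to 0.81 to 1.07 RPKM in ULAs and 4.7 to 32.61 RPKM in DLAs, with Hbb-b1 and Hbb-b2 at 0 in all ULA libraries.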

How the data were processed

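RNA of GFP-positive astrocytes from 6 libraries (3 per layer) was reverse transcribed with a SMART-Seq v4 kit, made into Nextera XT libraries and read from 1 end over 36 bases by Illumina HiSeq. The authors deposited RPKM values per symbol, truncated to 2 decimals. The submitters' processing notes name the build mm9, bcl2fastq 1.8.4 and CASAVA 1.8.2; the aligner and counting program are not given in the sources used here. RPKM is not a count, so no count model was used. Depth was recovered from the spacing of values up to 4.0 RPM in rows no longer than 500 bases. At the depth taken, 100% of them equalled a whole number of reads truncated to 2 decimals, with no tolerance, against 67.474% to 80.815% at the next best depth. Whole multiples of a depth match as well, so the lowest was taken. ULA libraries held 24.448 to 26.701 M reads and DLA libraries 19.657 to 29.557 M, used for precision only. Short reads that match more than 1 gene could be split or lost in ways the values do not show.

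Rows whose mean RPKM reached 1 were tested on log2(RPKM + 1) with limma 3.58.1 in R 4.3.3 (intensity trend, 2-sided, Benjamini-Hochberg over all rows tested), with brain and layer as terms. The study paired layers by brain, and the replicate number in the labels was taken as the brain: same-numbered libraries deviated together (r across genes 0.422, 0.333 and 0.341, against -0.199 to -0.160 for other pairs). Tables used Python 3.11.15 and pandas 2.3.3. The 8 members and all lists were chosen with earlier results of these data known. Named genes were the members, rows overlapping them, genes of 4 pathway lists that passed or had the largest value in either direction, the 2 rows most alike to each member, Aldh1l1, Gfap, and per marker list the highest gene and those at 0. From the pathway lists 2 genes are not reported here and were left out of the list counts. A few other genes were named after their values were seen. Alternatives were quantile normalization or median centring, no brain term, no trend, no filter or a minimum of 5 RPKM, a pseudocount of 0.1, removal of the mRNA length trend, and leaving out each brain in turn.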

Additional observations from a re-analysis of the deposited data

How the results depend on the processing

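Rows that passed numbered 100 as higher in ULAs and 128 as higher in DLAs. Without the replicate block these were 23 and 18. With no filter 0 passed in either direction (limma, unadjusted p under 0.05 for 1124 and 1675 rows). Without the trend 65 and 79 passed, and after the length correction 77 and 78. Leaving out 1 brain gave 104 to 426 and 126 to 687, the highest without brain 3. The split turned to 138 against 103 under quantile normalization and was 108 against 118 after median centring. Of the members, 1 passed (Dio2) among rows of at least 5 RPKM and 1 (Dio2) under quantile normalization, and 0 to 2 with 1 brain left out; no other alternative called a member, the fit without the replicate block included. Signs changed for members near 0, none of which passed: with 1 brain left out Thra ran from -0.14 to 0.17 (-0.01 without brain 1), Thrb from -0.13 to 0.22 and Hr from -0.13 to 0.081, and the length correction gave Thrb -0.046. Of the alternatives that could turn the sign of Dio2, Slco1c1 or Klf9 (median centring, quantile normalization and the length correction), 0 did. Of the other thyroid hormone genes 2 passed, but 1 without the replicate block, at 5 RPKM or more, under quantile normalization, after the length correction and without the trend, 0 with no filter, and 1 to 3 with 1 brain left out. Mag lost its call in 6 of 10 alternatives and Mbp in 1 of 11. The causes were not tested. At this depth Dio3 and Crym were too low to compare.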
